A study of Mus musculus with 2 samples.

Results

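The 38 genes described here are imprinted in mice, meaning that 1 of the 2 parental copies is the one mainly transcribed. They were taken by symbol from a fixed list, and all 38 were found among the 51826 genes of the deposited table. By textbook assignment, 23 are expressed from the paternal copy, 10 from the maternal copy, and 5 from a copy that depends on the isoform or tissue. Of the 38, 37 were measured in the neonatal spinal cord, which here means a mean of at least 1 count per 1000000 counts (CPM) over both libraries. The exception was Phlda2, a growth-restraining gene of the placenta, with 2 estimated counts in the cKO library and 0 in the WT library, which is under the floor of 6 counts.

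Imprinted genes lie in clusters, each under a control region that carries DNA methylation on the copy from 1 parent. That mark, laid down in the germline, decides through insulators or long non-coding RNAs which neighbours are read from which copy. Many of the paternally expressed genes promote growth of the fetus and many of the maternally expressed ones restrain it, and a large share of them stay active in neurons after birth.

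The data were 1 RNA library from spinal cord of mice with the genotype Olig1-Cre;Secisbp2l-floxed(Ex3) (cKO) and 1 from wild-type spinal cord (WT), both C57BL/6 at postnatal day 7. Olig1-Cre acts in the oligodendrocyte lineage, while each library holds RNA of all cells of the cord, and the number of animals pooled in a library is not stated. Secisbp2l encodes a relative of the selenocysteine insertion protein SECISBP2, and the comparison asked how the cord transcriptome differed in mice with the floxed allele. The labels mention Cre in the cKO group alone and give no littermate control. Parental copies were not measured, since the mice are of 1 strain and the files give 1 value per gene and library. With 1 library per group no difference has a replicate check and no p-value is given. A lower value cannot be divided between fewer cells of a type and less RNA per cell.

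The cKO library held 55179026 estimated counts and the WT library 42875143. Secisbp2l itself stood at 466 CPM in cKO and 588 CPM in WT (log2 ratio -0.34), a whole-cord value that includes the lineages without Cre. Myelinating oligodendrocyte markers summed to 8538 CPM in cKO and 17748 CPM in WT, and all 12 were lower by the rule given below. The sex-linked genes also differed: Xist, the RNA of the silenced X chromosome, had 13 counts in cKO and 35182 in WT, and the Y-linked gene Ddx3y had 4280 counts in cKO and 0 in WT. Red blood cell markers summed to 1900 CPM in cKO and 1300 CPM in WT, and Schwann cell markers to 1277 CPM in cKO and 1392 CPM in WT. Genotype and sex cannot be told apart for any gene below. Imprinted genes took 1.08% of all counts in cKO and 1.00% in WT.

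Sequences upstream of the transcript starts are shown for the genes that the results turn on: the 3 genes past the rule, and Grb10, 2 of whose starts moved unequally. They are the 250 bases before a RefSeq start on GRCm38.p6, read on the gene's own strand. Capitals mark the GC box letters GGGCGG or their reverse complement CCGCCC, and the TATA box letters TATAAA or TTTATA, with overlapping matches counted. Of 32851 such windows of all genes, 32.7% held a GC box and 12.4% a TATA box. RefSeq windows were matched for 31 of the 38 genes. H19, Cdkn1c, Rtl1, Peg10, Sgce, Peg13 and Impact had no entry.
Igf2 upstream start, chr7:142661272-142661521, minus strand: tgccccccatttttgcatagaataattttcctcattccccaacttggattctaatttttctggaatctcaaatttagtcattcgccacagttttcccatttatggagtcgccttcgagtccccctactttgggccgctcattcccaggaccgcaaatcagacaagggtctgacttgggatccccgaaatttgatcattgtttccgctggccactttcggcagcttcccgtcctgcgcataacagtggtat
Igf2 downstream start, chr7:142657497-142657746, minus strand: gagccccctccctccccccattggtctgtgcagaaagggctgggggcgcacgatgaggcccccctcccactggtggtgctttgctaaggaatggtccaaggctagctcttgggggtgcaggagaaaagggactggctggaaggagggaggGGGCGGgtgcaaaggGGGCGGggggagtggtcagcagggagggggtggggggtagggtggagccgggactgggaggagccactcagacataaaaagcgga
Peg12, chr7:62464511-62464760, minus strand: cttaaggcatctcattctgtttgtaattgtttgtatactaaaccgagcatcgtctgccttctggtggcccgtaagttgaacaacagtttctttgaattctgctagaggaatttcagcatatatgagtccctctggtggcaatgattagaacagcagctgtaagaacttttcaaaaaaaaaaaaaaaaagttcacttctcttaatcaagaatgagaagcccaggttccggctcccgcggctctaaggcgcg
Ddc, chr11:11890409-11890658, minus strand: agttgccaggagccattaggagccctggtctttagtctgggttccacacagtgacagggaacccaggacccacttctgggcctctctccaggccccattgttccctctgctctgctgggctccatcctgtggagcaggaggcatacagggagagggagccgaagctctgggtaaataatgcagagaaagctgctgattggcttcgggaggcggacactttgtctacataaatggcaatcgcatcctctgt
Grb10 main start, chr11:12037421-12037670, minus strand: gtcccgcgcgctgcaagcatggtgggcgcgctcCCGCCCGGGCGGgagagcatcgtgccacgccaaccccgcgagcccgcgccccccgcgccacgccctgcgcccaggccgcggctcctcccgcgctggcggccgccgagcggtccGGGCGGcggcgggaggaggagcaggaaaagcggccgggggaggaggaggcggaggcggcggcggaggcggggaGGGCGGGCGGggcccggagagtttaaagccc
Grb10 inner start, chr11:12027972-12028221, minus strand: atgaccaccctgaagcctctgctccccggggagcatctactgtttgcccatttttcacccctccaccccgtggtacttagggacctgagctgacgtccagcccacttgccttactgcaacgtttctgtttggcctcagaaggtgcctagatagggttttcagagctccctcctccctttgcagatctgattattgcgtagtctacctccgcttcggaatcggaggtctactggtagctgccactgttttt
The downstream Igf2 window held 2 GC boxes and 6 CpG, and the upstream one held no GC box and 10 CpG. Not all Igf2 windows are printed. One between these 2, chr7:142658805-142659054, held 1 GC box and 22 CpG, and no deposited transcript start matched it. The Igf2 start with the most counts, at chr7:142659489, had no matching window. The upstream window's start held 4.88% of Igf2 counts in cKO and 8.26% in WT. The main Grb10 window held 5 GC boxes and 40 CpG, against a median of 6 CpG over all windows, and the inner Grb10 window held no GC box and 8 CpG. The printed Peg12 and Ddc windows held neither motif. Another Ddc window, chr11:11898145-11898394, is not printed. It held 1 TATA box, and the transcripts that start there had 0 counts in both libraries.

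Most of the imprinted genes had nearly equal levels in both libraries, and 3 were lower in cKO. A gene was counted where its ratio was at least 1.5-fold and its exact (Clopper-Pearson) 95% interval, which covers counting error only, left out 1. Of the 37 measured, 0 were higher and 3 were lower: Igf2, Peg12 and Ddc. Among the 15917 measured genes of the whole table, 2.46% were higher and 3.42% were lower by that rule. At 2-fold, 0 were higher and 1 was lower, Igf2, against 0.817% higher and 1.15% lower of all measured genes. At the smallest fold tried, 5 to 4, 2 were higher, Mest and Asb4, and the same 3 were lower, against 6.23% higher and 7.84% lower of all measured genes. The median log2 ratio was 0.10 over the 37 imprinted genes and 0.01 over all measured genes. The other 34 lay between -0.30 (Cdkn1c) and 0.38 (Asb4). Of the 37, 27 had a ratio above 1, against 52.3% of all measured genes, and Impact and Mirg, both just below 1, lay above it on the TPM scale. Neuron markers shifted the same way, with 14 of 15 above 1, a median of 0.18, and sums of 9077 CPM in cKO and 8038 CPM in WT. Their part in the 27 was not tested.

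**Figure D1:**
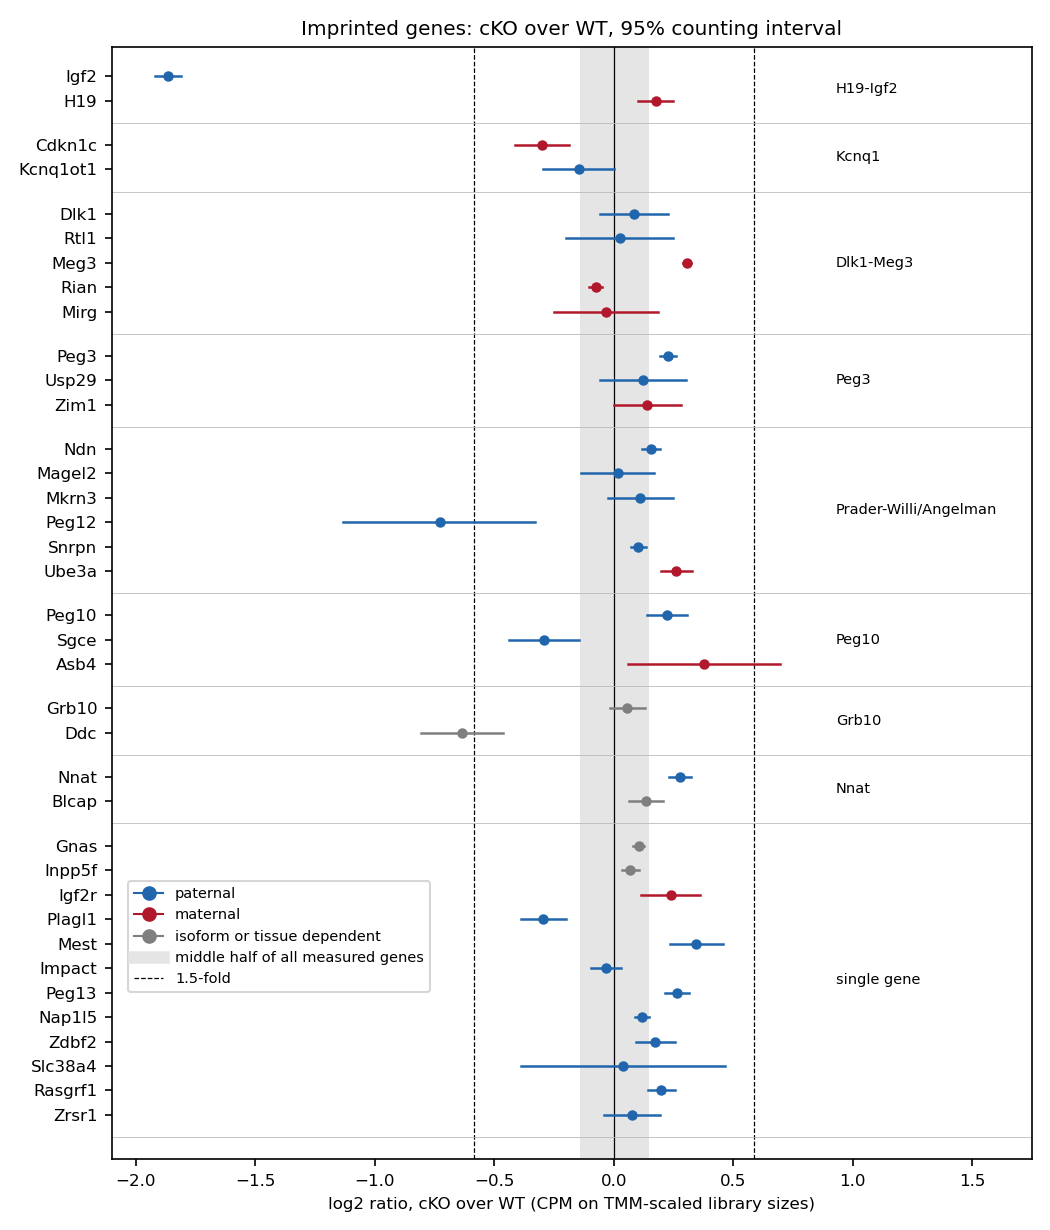
Log2 ratio of cKO over WT (horizontal axis) for the 37 measured imprinted genes, grouped by domain and coloured by the expressed parental copy. Bars are 95% counting intervals, the grey band spans the quartiles of all measured genes (-0.14 to 0.15), and the dashed lines stand at 1.5-fold. Igf2 lies alone near -1.87, Peg12 and Ddc lie just past the left dashed line, and no gene lies past the right one.

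Divided by parental copy, the 23 paternally expressed genes had a median log2 ratio of 0.10 and the 9 measured maternally expressed genes 0.17. Of the paternally expressed genes, 17 were above and 6 below a ratio of 1, with 2 past the rule, Igf2 and Peg12. Of the maternally expressed genes, 6 were above and 3 below, with none past the rule. The 5 genes whose copy depends on isoform or tissue had a median of 0.07, with 1 past the rule, Ddc. With so few genes in each class the medians are descriptions only.

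**Figure D2:**
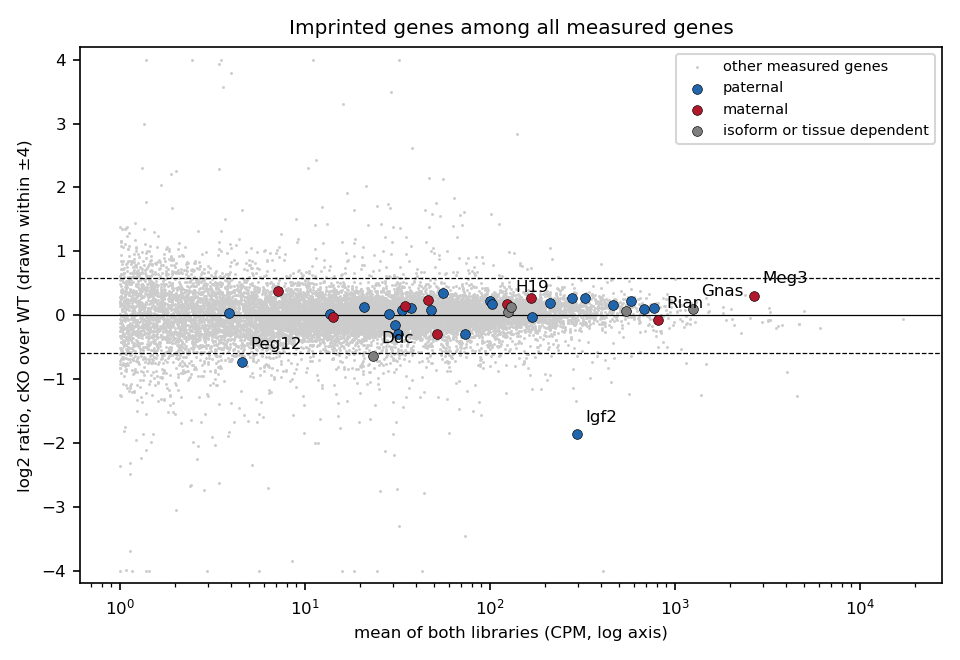
Log2 ratio of cKO over WT (vertical axis) against the mean level in CPM (log axis) for measured genes with counts in both libraries, with imprinted genes in colour and ratios beyond the axis drawn at its edge. Igf2 is the imprinted gene farthest from 0, and Meg3 has the highest CPM.

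Compared per unit length as TPM, transcript abundance scaled to length and to the library, imprinted genes ranged from some of the most abundant transcripts of the cord to traces. Gnas, the stimulatory G protein gene, had 1120 TPM in cKO and 1025 TPM in WT. Rian, a non-coding host of small nucleolar RNAs, had 1106 TPM in cKO and 1187 TPM in WT. Nap1l5, a nucleosome assembly relative, had 1012 TPM in cKO and 909 TPM in WT. Meg3, which stood in the top 100 transcript levels in cKO alone, had 909 TPM in cKO and 690 TPM in WT. At the other end, Slc38a4, an amino acid transporter, had 2.54 TPM in cKO and 2.20 TPM in WT. Kcnq1ot1, a very long non-coding RNA, had 0.789 TPM in cKO and 0.852 TPM in WT. In all, 10 imprinted genes in cKO and 9 in WT were among the 1000 genes of highest TPM.

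**Figure D3:**
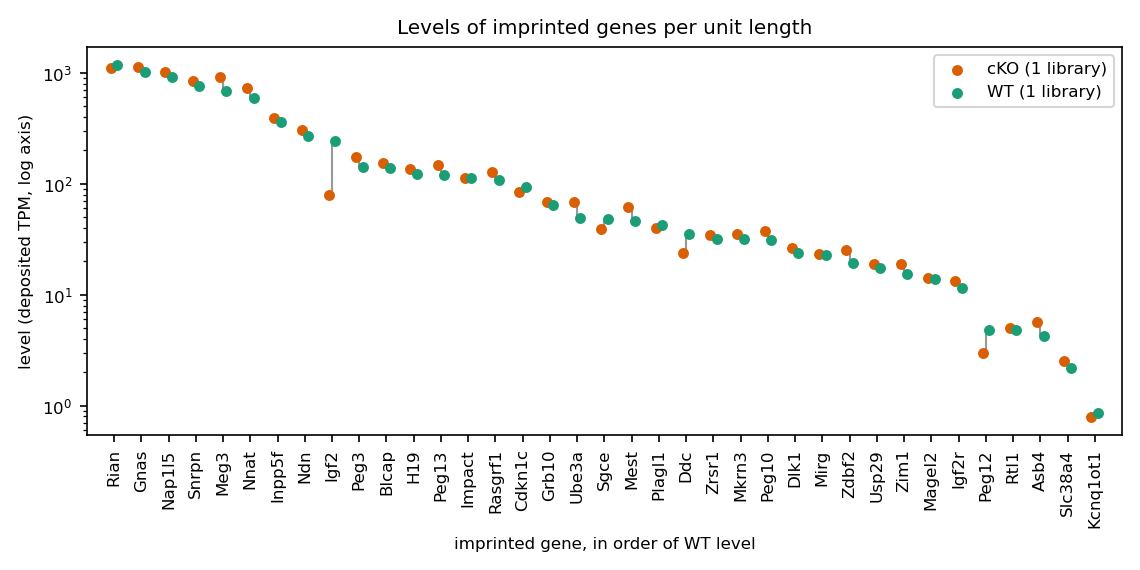
Deposited TPM (log axis) of the 37 measured imprinted genes in the cKO and WT libraries, in order of the WT level. The points of most genes lie close together over a range from about 1 to over 1000 TPM, and the widest gap is at Igf2, with 79.4 TPM in cKO and 243 TPM in WT.

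Igf2 encodes insulin-like growth factor 2, a fetal growth factor read from the paternal copy in most tissues and from both copies in the choroid plexus and leptomeninges. Igf2 (ENSMUSG00000048583, chr7:142650766-142666816, minus strand) had 129 CPM in cKO and 469 CPM in WT. The log2 ratio was -1.87 (interval -1.92 to -1.81), a level 3.64-fold lower in cKO. On the deposited TPM scale the ratio was -1.61. In order of TPM among all genes, Igf2 had rank 2292 in cKO and rank 532 in WT. Among the 2324 genes with a mean of at least 100 CPM it had the second lowest ratio, and the one below it was Xist. Among all 15917 measured genes, 47 including Igf2 had a ratio as low or lower.

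H19, the maternally expressed non-coding RNA that shares enhancers with Igf2, did not move with it. H19 (ENSMUSG00000000031, chr7:142575529-142578143, minus strand) had 132 CPM in cKO and 117 CPM in WT. Its log2 ratio was 0.17 (0.10 to 0.25). Per unit length, H19 was at 1.71 times the level of Igf2 in cKO and 0.501 times in WT. The difference between the log2 ratios of the neighbours was 2.04 (1.95 to 2.13).

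The Igf2 decrease was unequal over its transcript starts, which are the alternative promoters of the gene. From the start 5511 bases downstream of the first, close to the first window printed above, estimated counts were 346 in cKO and 1661 in WT (-2.63). From the start at 7327 bases, that of Igf2-205, they were 3633 in cKO and 14307 in WT (-2.34). From the start at 9320 bases, that of Igf2-201 and of the window with 2 GC boxes, they were 2847 in cKO and 4036 in WT (-0.87). Those 3 starts thus all had less in cKO, the first 2 by the most. Igf2-205 made up 51.2% of the Igf2 counts in cKO and 71.1% in WT, and Igf2-201 40.1% in cKO and 20.1% in WT. An inner start at 13786 bases went the other way, with 256 counts in cKO and 79 in WT. The division of reads between starts is the authors' estimate, and Igf2 also shares 98 bases of exon with the antisense gene Igf2os, which had 141 counts in cKO and 103 in WT.

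**Figure D4:**
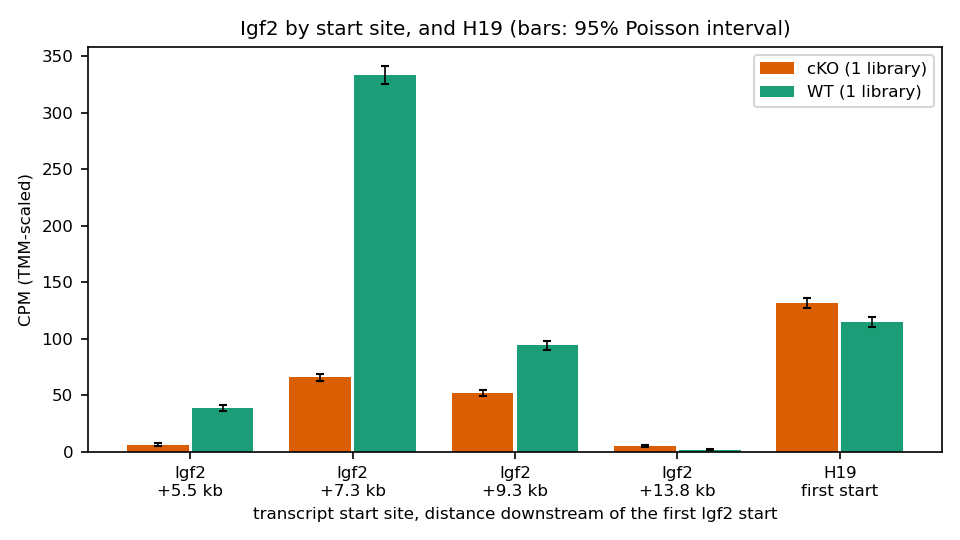
Level in CPM (vertical axis, from 0) at each Igf2 transcript start with at least 100 counts in all, by distance from the first start, and at the first start of H19, in cKO and WT. Error bars are 95% Poisson counting intervals. The tallest WT bar, at 7.3 kb, is far above its cKO neighbour, and the H19 bars are nearly level.

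Cell types that are rich in Igf2 were looked at beside it. Of 15 meningeal and fibroblast markers, 14 had a ratio below 1 and 1 passed the rule, Ogn (36.8 CPM in cKO and 55.6 CPM in WT). Their sum was 3896 CPM in cKO and 4271 CPM in WT, a log2 ratio of -0.13. Choroid plexus markers summed to 19.6 CPM in cKO and 19.9 CPM in WT, with Otx2 at 0 in both libraries and Ttr at 0 counts in cKO and 2 in WT. Cartilage and bone markers summed to 29.6 CPM in cKO and 41.2 CPM in WT, with 5 of 8 measured lower. Skeletal muscle markers, of which 3 of 9 were measured, summed to 9.23 CPM in cKO and 9.51 CPM in WT, with Myog at 0 in both. Of those 3, 2 were lower, Des (1.29 CPM in cKO and 2.68 CPM in WT, -1.06) and Tnnt3, a fast muscle troponin gene (0.870 CPM in cKO and 1.56 CPM in WT, -0.84). The other one, Acta1, had the highest CPM of the list and a ratio above 1. It had 3.81 CPM in cKO and 3.31 CPM in WT (0.20, interval -0.25 to 0.66). Pericyte and endothelial markers were all 10 above a ratio of 1, at 546 CPM in cKO and 506 CPM in WT. Beside these counts of lower markers, 3.42% of all measured genes were lower by the rule. The part of these cell types in the Igf2 value was not tested.

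The partners of IGF2 showed no common shift. Of 17 genes for receptors, adaptors, proteases, binding proteins of IGF or of Igf2 RNA, and the related ligand Igf1, 15 were measured. Those 15 had a median log2 ratio of -0.02. Igfbp6, a binding protein that prefers IGF2, was lower, at 15.3 CPM in cKO and 25.6 CPM in WT (-0.74). Pappa2, a protease that cuts IGF binding proteins, was higher, at 4.90 CPM in cKO and 3.05 CPM in WT (0.68). The partners with the highest CPM were near equal: Igfbp5 had 280.0 CPM in cKO and 254 CPM in WT, Igfbp2 192 CPM in cKO and 203 CPM in WT, and Igfbp4 101 CPM in both. Igf2r, the maternally expressed receptor that carries IGF2 to lysosomes and is read from both copies in neurons, had 50.2 CPM in cKO and 42.6 CPM in WT (0.24). Grb10, an adaptor that restrains insulin and IGF receptors, had 128 CPM in cKO and 123 CPM in WT (0.06).

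Next to H19-Igf2 on chromosome 7, the Kcnq1 domain is silenced on the paternal copy by Kcnq1ot1. Cdkn1c, the cell-cycle inhibitor p57, had 46.4 CPM in cKO and 57.1 CPM in WT (-0.30). Kcnq1ot1 had 29.1 CPM in cKO and 32.2 CPM in WT (-0.15), with an interval that holds 0. Neither passed the rule.

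In the Dlk1-Meg3 domain of chromosome 12, coding genes are read from the paternal copy and non-coding RNAs from the maternal one. Dlk1, a Notch ligand relative, had 34.8 CPM in cKO and 32.8 CPM in WT (0.09). Rtl1, a retrotransposon-derived gene, had 13.9 CPM in cKO and 13.7 CPM in WT (0.02). The paternal pair was therefore level within counting error.
The maternal RNAs did not all move as one. Meg3, the imprinted RNA with the most counts, had 2975 CPM in cKO and 2406 CPM in WT (0.31, interval 0.29 to 0.32). Rian had 795 CPM in cKO and 838 CPM in WT (-0.08). Mirg, a host of microRNAs, had 14.1 CPM in cKO and 14.5 CPM in WT (-0.03). The log2 ratio of Rian was 0.38 below that of Meg3 (0.35 to 0.41), although both lie in 1 transcribed stretch, and such a difference between 2 libraries has no replicate check.

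Rtl1 lies across from a row of microRNA genes on the maternal copy, which match it base for base and can cut its RNA. Their mature sequences, from RefSeq on GRCm38.p6, are shown because they mark where the strands overlap, with the seed (bases 2 to 8) in capitals.
miR-431-5p, chr12:109590459-109590479, plus strand: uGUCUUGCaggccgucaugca
miR-433-3p, chr12:109591781-109591802, plus strand: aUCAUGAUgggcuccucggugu
miR-127-3p, chr12:109592888-109592909, plus strand: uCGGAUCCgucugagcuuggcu
miR-434-3p, chr12:109594565-109594586, plus strand: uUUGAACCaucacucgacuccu
miR-136-5p, chr12:109595331-109595352, plus strand: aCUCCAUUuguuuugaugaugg
No seed is shared among the 5. The rows of their precursor genes held 0 counts in both libraries, in a kit made for messenger RNA, so these libraries give no measure of the mature microRNAs.

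In the Peg3 domain all 3 genes had ratios slightly above 1. Peg3, a zinc-finger protein, had 629 CPM in cKO and 537 CPM in WT (0.23). Usp29, a deubiquitinase read in the opposite direction from the same promoter region, had 21.9 CPM in cKO and 20.2 CPM in WT (0.12). Zim1, a maternally expressed zinc-finger gene, had 36.8 CPM in cKO and 33.4 CPM in WT (0.14). None was past 1.5-fold, and the log2 ratios of Usp29 and Zim1 differed from that of Peg3 by -0.11 and -0.09, both with intervals that hold 0.

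In the Prader-Willi/Angelman domain, Peg12 stood apart from its neighbours. Peg12, also called Frat3, encodes a binding partner of the kinase GSK3, and it lies at chr7:62461871-62464510 on the minus strand (ENSMUSG00000070526). It had 190 estimated counts in cKO and 245 in WT, or 3.45 CPM in cKO and 5.71 CPM in WT. The log2 ratio was -0.73 with a wide interval (-1.13 to -0.33), 1.66-fold lower. Over both libraries together it had the second fewest counts of the measured imprinted genes, after Slc38a4, and 381 measured genes including Peg12 had a ratio as low or lower.
Mkrn3, a neighbouring makorin ring-finger gene, had 39.0 CPM in cKO and 36.1 CPM in WT (0.11). Ndn, encoding the neuronal growth suppressor necdin, had 492 CPM in cKO and 442 CPM in WT (0.16). Magel2, a relative of necdin, had 28.9 CPM in cKO and 28.6 CPM in WT (0.02). Snrpn, a splicing factor gene of neurons, had 707 CPM in cKO and 658 CPM in WT (0.10). The log2 ratio of Peg12 was 0.84 below that of Mkrn3 with an interval that leaves out 0.

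Ube3a, the ubiquitin ligase lost in Angelman syndrome and read from the maternal copy in neurons, had 182 CPM in cKO and 152 CPM in WT (0.26). Its exons overlap antisense transcripts with 9450 counts in cKO and 7549 in WT, chiefly Snhg14, which is the paternal RNA that silences it. Summed with them, as the strand setting of the counts is not given, the log2 ratio was 0.11. On the deposited TPM scale, without that sum, the log2 ratio of Ube3a was 0.49. Snhg14 itself had 132 CPM in cKO and 135 CPM in WT (-0.03).

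In the Peg10 domain of chromosome 6, neighbours that share 1 control region differed. Peg10, derived from a retrotransposon, had 108 CPM in cKO and 93.0 CPM in WT (0.22). Sgce, epsilon-sarcoglycan, is transcribed away from it and had 28.9 CPM in cKO and 35.4 CPM in WT (-0.29). Asb4, a maternally expressed ubiquitin ligase subunit, had 8.11 CPM in cKO and 6.25 CPM in WT (0.38, interval 0.06 to 0.70). The log2 ratio of Sgce was 0.51 below that of Peg10 (0.35 to 0.68).

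Ddc was lower in cKO while Grb10 beside it was not. Ddc encodes aromatic L-amino acid decarboxylase, the last step of dopamine and serotonin synthesis, and in mice its imprinting is known from the heart. Ddc (ENSMUSG00000020182, chr11:11814101-11898144, minus strand) had 18.4 CPM in cKO and 28.5 CPM in WT. The log2 ratio was -0.63 (-0.81 to -0.46), 1.55-fold lower, and on the TPM scale -0.57, which falls short of 1.5-fold. Nearly all Ddc counts, 97.5% in cKO and 98.3% in WT, came from the start whose upstream window is printed above. The log2 ratio of Ddc was 0.69 below that of Grb10 (0.51 to 0.87). Th, the enzyme before Ddc in dopamine synthesis, had 1.78 CPM in cKO and 2.38 CPM in WT (-0.42, interval -1.02 to 0.17).

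Grb10 is read from the maternal copy in most tissues and from the paternal copy in neurons, from different starts. The main start, with the CpG-rich window, had 6676 counts in cKO and 4698 in WT (0.14). The inner start with a window printed above, which was singled out after its values were seen, had 29 counts in cKO and 383 in WT (-4.09). It held 0.412% of the gene's counts in cKO and 7.27% in WT, so the gene total hardly moved. Starts further inside the gene went the other way. The one 11951 bases downstream of the first had 167 counts in cKO and 102 in WT (0.35, interval -0.17 to 0.88). The one at 82659 bases had 140 in cKO and 64 in WT (0.77). The remaining starts had few counts or none.

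Nnat and Blcap form a domain in which Nnat lies inside Blcap. Nnat, a membrane proteolipid of developing neurons, had 361 CPM in cKO and 298 CPM in WT (0.28). Blcap had 136 CPM in cKO and 124 CPM in WT (0.14). Both were higher in cKO by less than 1.5-fold.

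Gnas yields several products from starts that differ in imprinting. Over the whole gene it had 1296 CPM in cKO and 1207 CPM in WT (0.10). The first start, that of the maternally read Nesp product, held 7.71% of counts in cKO and 8.13% in WT. The start 13539 bases on, that of the paternally read long product, held 55.5% in cKO and 54.9% in WT. From the last main start, that of the stimulatory G protein, which is read from both copies in most tissues, counts were 11364 in cKO and 10154 in WT (-0.20), or 15.9% in cKO and 19.6% in WT. From the start before it, that of the paternally read exon 1A transcripts, counts were 14576 in cKO and 8673 in WT (0.39), or 20.4% in cKO and 16.8% in WT. These are shares of counts, not scaled to length. Gnas-220, from the start of the long product, has 3614 bases, and Gnas-208, from that of the stimulatory G protein, has 1716. The division of reads between Gnas starts, whose transcripts share exons, is the authors' estimate and can differ between libraries. Nespas, an antisense RNA of the domain that overlaps Gnas exons, had 46.3 CPM in cKO and 32.3 CPM in WT (0.52).

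The remaining imprinted genes, mostly single genes in their domains, all lay within 1.5-fold. The highest ratio among them was that of Mest, a hydrolase-like gene, with 62.8 CPM in cKO and 49.5 CPM in WT (0.34). It shares exon sequence with Copg2 on the other strand, and summed with it the log2 ratio was 0.23. The lowest was that of Plagl1, a zinc-finger regulator of imprinted genes, with 66.0 CPM in cKO and 81.0 CPM in WT (-0.29).
Higher in cKO by smaller amounts were Peg13, a non-coding RNA, with 306 CPM in cKO and 255 CPM in WT (0.26), and Rasgrf1, a Ras exchange factor of neurons, with 226 CPM in cKO and 197 CPM in WT (0.20). Zdbf2, a zinc-finger gene, had 109 CPM in cKO and 96.9 CPM in WT (0.17). Nap1l5 had 808 CPM in cKO and 745 CPM in WT (0.12).
The log2 ratios of Zrsr1, Inpp5f, Slc38a4 and Impact lay between -0.03 and 0.08. Slc38a4 had 3.97 CPM in cKO and 3.87 CPM in WT. Inpp5f, a phosphoinositide phosphatase with a paternally read brain isoform, had 559 CPM in cKO and 533 CPM in WT. Zrsr1, an intronless relative of the splicing factor gene Zrsr2, had 49.5 CPM in cKO and 46.9 CPM in WT, and reads that fit its relative could be divided between them. Impact, an inhibitor of the stress kinase GCN2, had 168 CPM in cKO and 172 CPM in WT.

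Below the gene level, the division of counts between isoforms differed more than the gene totals. Of 64 transcripts with at least 10% of their gene's counts in either library, 6 were higher and 7 lower in cKO by the same rule, against 12.7% higher and 13.4% lower among all such transcripts of measured genes. The members' share was thus no greater than the background. Ube3a-201 had 3472 counts in cKO and 30 in WT, while Ube3a-203 held 56.4% of the gene in cKO and 81.6% in WT. Plagl1-203 had 647 counts in cKO and 0 in WT, while Plagl1-202 held 78.0% of the gene in cKO and 93.7% in WT. In both genes the totals differed far less than the isoforms did. Peg10-201 had 3519 counts in cKO and 1665 in WT (0.72), and Peg10-202 had 2459 in cKO and 2323 in WT (-0.28). Nnat-210 had 1998 counts in cKO and 799 in WT (0.96). Among the lower ones, Sgce-207 had 72 counts in cKO and 180 in WT (-1.68), and Dlk1-206 had 294 in cKO and 352 in WT (-0.62). The transcripts of Mirg went both ways, with Mirg-204 (1.35) and Mirg-207 (0.60) higher and Mirg-210 (-0.69) lower. The other lower transcripts belong to Igf2, Peg12 and Ddc. These counts come from the authors' division of reads among transcripts that share exons, which can differ between libraries.

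**Figure D5:**
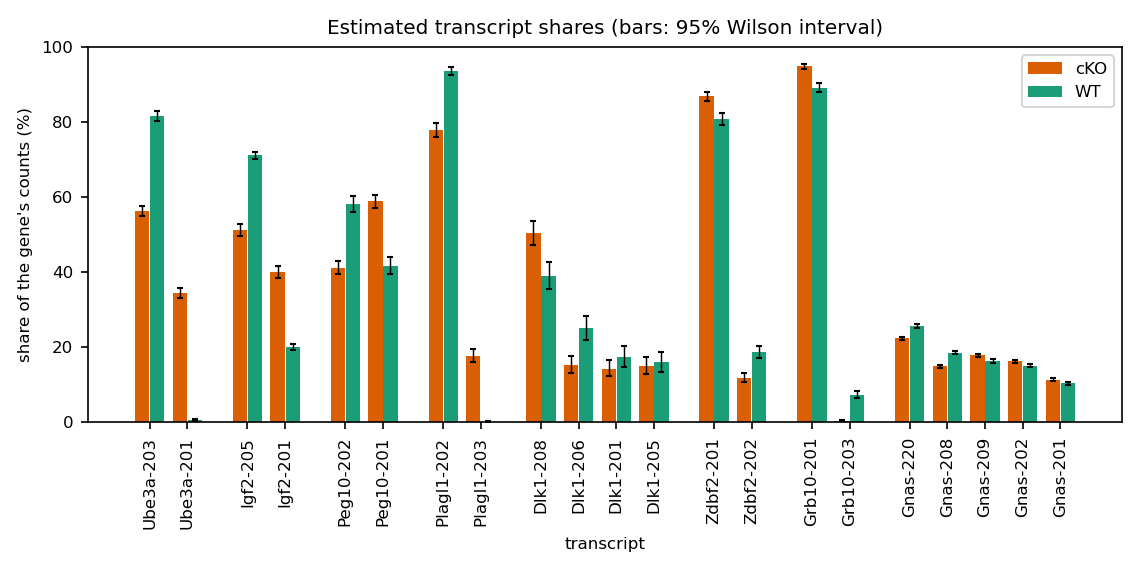
Share of a gene's estimated counts (vertical axis, percent, from 0) held by its transcripts of at least 10% in either library, with Grb10-203 added, in cKO and WT. Only Ube3a, Igf2, Peg10, Plagl1, Dlk1, Zdbf2, Grb10 and Gnas are drawn, not all measured imprinted genes. Error bars are 95% Wilson intervals of counting error. Ube3a-201 and Plagl1-203 have a visible bar in cKO alone, and Grb10-203 has one in WT.

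Other genes of imprinted regions were mostly level. Of 45 listed, 35 were measured, with a median log2 ratio of 0.01, 0 higher and 1 lower. By the same rule, 2.46% of all measured genes were higher and 3.42% were lower. The lower one was Tnnt3, near H19 and also 1 of the 2 lower muscle markers above, with 48 counts in cKO and 67 in WT (-0.84, interval -1.66 to -0.04). Those with the highest CPM were Cd81, a tetraspanin at 496 CPM in cKO and 531 CPM in WT, Ago2 at 228 CPM in cKO and 198 CPM in WT, and Herc3 at 145 CPM in cKO and 136 CPM in WT. None of those 3 reached 1.5-fold.

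Among 18 genes that set or keep imprints, 16 were measured, with a median of 0.10. By the rule 0 were higher and 1 was lower, against 2.46% higher and 3.42% lower of all measured genes. Dnmt3a, the DNA methyltransferase that lays down germline imprints, had 166 CPM in cKO and 422 CPM in WT (-1.35, interval -1.40 to -1.29). On the deposited TPM scale the difference was smaller, with 62.2 TPM in cKO and 116 TPM in WT. By the authors' division of reads its isoforms went both ways: Dnmt3a-218 had 742 counts in cKO and 15435 in WT (-4.74), and Dnmt3a-201 had 7224 in cKO and 2328 in WT (1.27). A start 43628 bases downstream of the first had 741 counts in cKO and 40 in WT (3.85). The other 15 measured lay within the rule, between -0.20 (Uhrf1) and 0.38 (Tet2). Trim28, a cofactor of zinc-finger proteins that protect imprints, had 146 CPM in cKO and 145 CPM in WT. Zfp445, a zinc-finger protein that binds control regions, had 158 CPM in cKO and 162 CPM in WT. Zfp57, another such zinc-finger protein, had 18.6 CPM in cKO and 16.2 CPM in WT.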

How the data were processed

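RNA of postnatal day 7 spinal cord was sequenced, 1 cKO and 1 WT library, with no replicates. Bowtie2 2.3.2, CASAVA and the build GRCm38.p6 are named in the submitters' processing notes. The counting tool, annotation release and strand: not given in the sources used here. Per gene and transcript, the authors deposited estimated counts, TPM and FPKM, per the file headers. In 95.8% of low cKO and 96.0% of low WT transcripts the deposited count equalled a constant times FPKM times length, rounded up to a whole number (tolerance 0.02). Where a gene had a single low transcript, that product lay within 0.2 of an even number in 42.6% (cKO) and 45.3% (WT), and of an odd number in 13.7% (cKO) and 12.7% (WT). One fragment was therefore taken as 2 counts. Exact (Clopper-Pearson) 95% intervals were computed on fragments and Wilson intervals for shares. They allow for counting error alone, as do floors, because reads copied by PCR are no separate molecules.

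Library totals of 55179026 (cKO) and 42875143 (WT) counts were scaled with TMM factors (edgeR 4.0.16, R 4.3.3) to CPM, and log2 ratios of cKO over WT were taken without a pseudocount. The floor for a count of 0 was 3 fragments, or 6 counts. Genes averaging 1 CPM or more were taken as measured, and counted at 1.5-fold with an interval leaving out 1. With a single library on each side there is no spread between samples to test against, so no test was run. Starts less than 500 bases apart were joined. Transcript names and exon overlaps come from GENCODE M21, which held 99.6% of the deposited transcript IDs, and upstream sequences and microRNAs from RefSeq. Python 3.11.15, numpy 2.4.6, pandas 2.3.3, scipy 1.17.1 and matplotlib 3.10.9 were used. The interval was tried only on counts simulated with the counting error it assumes. That trial cannot show how it fits the deposited estimates.

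The members, lists, rule and alternatives were chosen with earlier results of these data known. Named were all 38 genes, transcripts with at least 10% of a member's counts, and genes from the other lists. From each list except the cell type markers these were up to 6 genes past the rule and the 3 most abundant. The marker lists were given as sums or counts, with only some genes named. Th, Nespas, Snhg14, Zfp57, Trim28, Uhrf1, Tet2 and isoforms of Grb10 and Dnmt3a were added after their values were seen. A value that this naming would include is not reported here. Alternatives changed the scaling, unit, filter, interval, fold and exon sharing.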

Additional observations from a re-analysis of the deposited data

How the results depend on the processing

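No paired analysis was possible because each group has 1 library and the labels carry no replicate numbers, and for the same reason no replicate could be left out. Across 14 alternatives, 0 imprinted genes were higher in cKO except at a fold of 5 to 4, where 2 were, Mest and Asb4. The count of 3 lower genes fell to 1, Igf2, at 2-fold and on TPM with a pseudocount of 1, and to 2 on TPM with a pseudocount of 0.1, which drops Ddc, and at a mean of at least 5 CPM, which drops Peg12. Igf2 was lower under all 14. The median of paternally expressed genes was 0.10, but 0.15 on TPM with a pseudocount of 0.1 and 0.14 with a pseudocount of 1, scales on which the median of all measured genes was 0.05. The median of maternally expressed genes stayed between 0.14 and 0.21. No gene past the rule changed sign. Impact and Mirg, within 0.04 of 0, changed sign under some settings. Single-gene ratios moved beyond their counting interval on TPM in 12 of 37 genes with a pseudocount of 0.1 and 11 with a pseudocount of 1, on FPKM in 6, summed over both strands in 2 and with upper quartile factors in 1. The cause was not tested. With 1 library per group, differences between animals are outside every interval given, and Peg12, with the widest interval of the 3, is limited by depth.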
